A study of Rattus norvegicus with 2 samples.

Results

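Inhibitors of cyclin-dependent kinases (CDKs), D cyclins and MYC transcription factors were examined in neural stem cells, dividing cells that renew themselves and give rise to neurons and glia, after exposure to the inhaled anaesthetic sevoflurane. The group was set by name as 10 genes, Cdkn1b, Cdkn1c, Cdkn2b, Cdkn2c, Cdkn2d, Ccnd1, Ccnd2, Ccnd3, Myc and Mycn, and a probe belonged to it when its RefSeq mRNA accession was that of one of these genes. In all, 10 probes for 8 of the genes were found, and all 8 were measured on both arrays, among 10028 measured genes. No probe was matched to Cdkn2d or Ccnd3, which are not analysed here. The sevoflurane array held RNA of cells under 2.4% sevoflurane, and the control array that of cells under 0% sevoflurane. Both sets of cells came from the hippocampus of Sprague-Dawley rats of postnatal day 3, were grown with bFGF and without serum, and were at passage 3. The labels give 6 h under the gas and 24 h of return to an ordinary incubator at 5% CO2, but elsewhere name only 6 h, so the time of harvest is uncertain. There was 1 array per group and therefore no replicate check and no test. The labels do not settle whether an array held 1 culture or a pool.

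D cyclins bind CDK4 and CDK6 and start the phosphorylation of the retinoblastoma protein, which lets E2F factors switch on genes of DNA synthesis. The INK4 inhibitors (in this group the products of Cdkn2b, Cdkn2c and Cdkn2d) bind CDK4 and CDK6 and keep D cyclins from activating them. The CIP/KIP inhibitors (in this group the products of Cdkn1b and Cdkn1c) bind complexes of cyclin and kinase, mainly those of CDK2. Cdkn1a, another CIP/KIP gene, was not part of the group. MYC and MYCN pair with MAX and drive genes of growth and ribosome synthesis, and MYC is known to repress Cdkn2b. MYCN is prominent in the dividing precursors of the developing brain.

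Values are processed signals, the brightness of a spot after background correction. A level is the log2 signal minus the 75th percentile of its array, which lay at a signal of 359.3 under sevoflurane and 692.2 in the control. A difference is the level on the sevoflurane array minus that on the control array, and a gene was counted when it differed by at least 2-fold (1 log2 unit). Each probe of the group had 1 spot per array. For probes with at least 3 spots, the median SD between spots was 0.088 log2 units under sevoflurane (4506 probes) and 0.068 in the control (4491 probes), which together give a technical spread of 0.111 for a difference and leave out variation between cultures.

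Among the 8 genes, Cdkn2b, Cdkn1c and Ccnd2 were higher by at least 2-fold in the sevoflurane sample, and Mycn was lower. Cdkn1b, Cdkn2c, Ccnd1 and Myc differed by less. Over all 10028 measured genes the same rule took 28.2% as higher and 11.2% as lower after 75th percentile scaling. The counts of 3 and 1 among 8 genes are near this background. That background takes in dim genes, whose differences ran high (median 1.69 in the dimmest of 10 groups by level). The 8 genes all lay in brighter groups, with group medians between -0.14 and -0.01. The median difference was 0.69 for the 8 genes and 0.27 for all measured genes. The split of all genes moved with the scaling. Quantile normalization put 13.6% of all genes above and 19.6% below 2-fold, and cyclic loess, a correction that depends on the level, put 14.0% above and 17.4% below. The deposited table gave 13.6% above and 19.2% below, normexp background correction 23.1% and 8.45%, and the 75th percentile over measured probes 30.9% and 9.49%. The counts of 3 and 1 were the same under each of these 5. Set against 13.6% or 14.0% of all genes, 3 of 8 higher lies above the background. Set against 19.6% or 17.4%, 1 of 8 lower lies below it. With 8 genes on 1 array per group, neither can be tested. Scaling to the median of all probes gave 10.5% above and 43.5% below, and then 1 of the 8 genes was higher and 3 were lower.

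**Figure D1:**
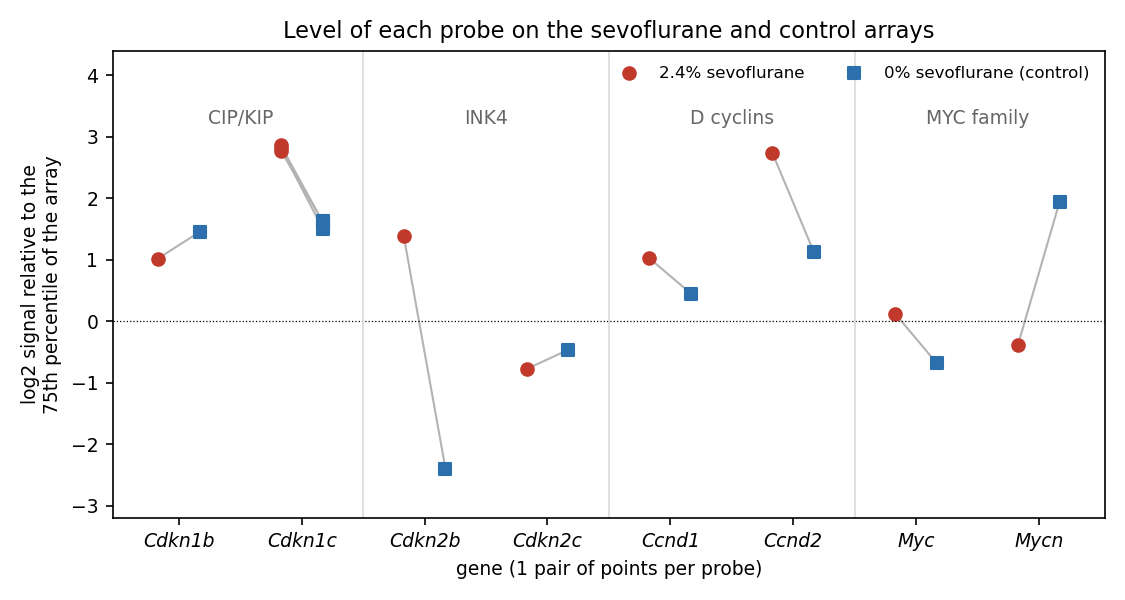
Level of each probe (log2 signal relative to the 75th percentile of its array) on the sevoflurane array (circles) and the control array (squares), with 1 pair of points per probe. Cdkn2b lies at 1.39 under sevoflurane and at -2.40 in the control, Mycn at -0.39 and 1.95, and the 3 probes of Cdkn1c nearly coincide.

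Among the INK4 inhibitors in the group, Cdkn2b had the largest difference of all 8 genes. This gene encodes p15, an inhibitor that TGF-beta is known to induce. Its single probe had a signal of 941.1 under sevoflurane and 131.4 in the control. The levels were 1.39 under sevoflurane and -2.40 in the control. The sevoflurane sample was thus higher by 3.79 log2 units, or 13.8-fold, which ranked 151 from the highest of 10028 genes, or 98 after cyclic loess. Over 7 scalings the difference ran between 2.69 and 3.91 log2 units, and it stayed above 2-fold in each. Cdkn2c, which encodes the related inhibitor p18, gave signals of 209.3 under sevoflurane and 501.5 in the control. Its levels were -0.78 under sevoflurane and -0.47 in the control, a difference of -0.31, so this gene did not share the higher level of Cdkn2b. The difference of Cdkn2c was negative in all 7 scalings, between -1.41 and -0.19, and passed 2-fold only under the scaling to the median of all probes. The gap between the differences of Cdkn2b and Cdkn2c was 4.10 log2 units. A factor common to a whole array cancels in such a gap, which lay between 3.53 and 4.12 over the 7 scalings. For this and the later gaps, the scalings of processed signals to a percentile or the median give the same value by construction.

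The 250 bases before the annotated start are printed for Cdkn2b, the gene with the largest difference, and for Cdkn2c and Cdkn1b, the inhibitors that were not higher, so that the upstream sequence of differing inhibitors can be set side by side. They are from RefSeq (GRCr8), whose promoter table held 5 of the 10 genes (Cdkn1b, Cdkn2b, Cdkn2c, Cdkn2d and Ccnd3). Positions are chr5:109134856-109135105 (minus strand) for Cdkn2b, chr5:129644892-129645141 (minus strand) for Cdkn2c and chr4:169491254-169491503 (plus strand) for Cdkn1b. The array was designed on another build (rn4). Capitals mark matches, on either strand, to any of 9 motifs spelled out after the sequences, and touching matches run together.
Cdkn2b: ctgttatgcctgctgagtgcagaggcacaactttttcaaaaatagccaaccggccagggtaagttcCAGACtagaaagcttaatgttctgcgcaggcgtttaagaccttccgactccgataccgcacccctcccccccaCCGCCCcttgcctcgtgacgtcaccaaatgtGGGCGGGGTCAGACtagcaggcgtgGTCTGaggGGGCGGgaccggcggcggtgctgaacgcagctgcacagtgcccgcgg
Cdkn2c: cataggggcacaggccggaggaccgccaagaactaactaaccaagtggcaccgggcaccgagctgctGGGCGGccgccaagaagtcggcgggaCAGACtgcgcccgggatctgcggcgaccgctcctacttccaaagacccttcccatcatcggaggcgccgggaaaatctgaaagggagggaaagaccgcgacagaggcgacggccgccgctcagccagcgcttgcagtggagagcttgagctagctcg
Cdkn1b: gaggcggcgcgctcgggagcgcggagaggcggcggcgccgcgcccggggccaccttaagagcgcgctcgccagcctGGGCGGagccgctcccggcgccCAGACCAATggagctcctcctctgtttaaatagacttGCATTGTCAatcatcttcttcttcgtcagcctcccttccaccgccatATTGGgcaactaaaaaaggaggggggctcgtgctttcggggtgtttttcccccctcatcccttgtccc

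The motifs searched were the GC box GGGCGG, the CCAAT box CCAAT, the TATA box TATAAA, the E-box CACGTG bound by MYC and MAX, the SMAD box CAGAC, the AP-1 site TGANTCA, the antioxidant response element TGACNNNGC, an E2F site TTTNNCGC and a FOXO site GTAAACA. The Cdkn2b sequence held 3 GC boxes and 3 SMAD boxes, while the Cdkn2c and Cdkn1b sequences held 1 of each. Of 33465 rat promoters of the same length, 30.5% held a GC box and 42.9% a SMAD box, and 7.41% held 3 or more GC boxes and 2.54% 3 or more SMAD boxes. An antioxidant response element matched once in Cdkn2b, where it overlaps a GC box and a SMAD box, and once in Cdkn1b, against 10.1% of all promoters. The Cdkn1b sequence also held 2 CCAAT boxes, of which 1 overlaps its SMAD box, and a CCAAT box stood in 34.0% of all promoters. None of the 3 sequences held the letters of the E-box (5.59% of all promoters), the TATA box (12.9%), the AP-1 site (6.34%), the E2F site (4.11%) or the FOXO site (3.22%). The GC content was 60.8% for Cdkn2b, 65.2% for Cdkn2c and 64.0% for Cdkn1b, against a median of 51.2% over all promoters. These matches describe letters and not bound sites.

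Of the CIP/KIP inhibitors in the group, Cdkn1c was higher and Cdkn1b was not. Cdkn1c encodes p57, an imprinted inhibitor known in mice to hold hippocampal neural stem cells in quiescence, and was read by 3 probes with accessions of different transcripts. Their signals were 2605.9, 2536.2 and 2459.9 on the sevoflurane array, against 2124.9, 1965.7 and 2137.0 on the control array in the same order of probes. The differences were 1.24, 1.31 and 1.15, so all 3 probes lay above 2-fold. They read the same RNA samples and are no replicates. The probe that stands for the gene was higher by 2.36-fold. Its difference lay between 0.14 and 1.36 over the 7 scalings, with 6 of them past 2-fold. Cdkn1b encodes p27, the inhibitor that rises in many cells as they leave the cycle. Its probe gave signals of 728.3 under sevoflurane and 1895.7 in the control. The levels of Cdkn1b were 1.02 under sevoflurane and 1.45 in the control, a difference of -0.43. That difference was negative in all 7 scalings (between -1.53 and -0.31) and short of 2-fold in 6 of them. The gap between the differences of Cdkn1c and Cdkn1b was 1.67 log2 units, with a range of 1.41 to 1.67 over the scalings.

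The measured D cyclins both had higher levels under sevoflurane, Ccnd2 by more than Ccnd1. Ccnd2, the D cyclin that adult-born hippocampal neurons are known to require in mice, had signals of 2407.3 under sevoflurane and 1505.1 in the control. Its levels were 2.74 under sevoflurane and 1.12 in the control, a difference of 1.62 or 3.08-fold. The difference was positive in all 7 scalings (between 0.53 and 1.75) and past 2-fold in 6. Ccnd1 is the D cyclin induced by growth factor signalling through the MAP kinase pathway. Its signals were 729.9 under sevoflurane and 944.0 in the control, and its levels 1.02 under sevoflurane and 0.45 in the control. Its level was thus higher although its signal before scaling was lower. The 75th percentile taken off was a signal of 359.3 under sevoflurane and 692.2 in the control. At the median of all probes the sevoflurane array was not the dimmer one. More probes were well above background under sevoflurane (20538) than in the control (16443). The Ccnd1 difference of 0.57 was short of 2-fold in all 7 scalings, and it was -0.52 when arrays were scaled to the median of all probes. The gap between the differences of Ccnd2 and Ccnd1 was 1.05 log2 units and stayed above 1 log2 unit in all 7 scalings.

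The MYC family genes differed in opposite directions under 6 of 7 scalings. Mycn gave a signal of 274.3 under sevoflurane and 2666.1 in the control. The levels were -0.39 under sevoflurane and 1.95 in the control. Mycn was thus lower by 5.04-fold (a difference of -2.33), which ranked 175 from the lowest of 10028 genes, or 358 after cyclic loess. It stayed past 2-fold in all 7 scalings, between -3.43 and -2.20. Myc, likewise lower before scaling, had signals of 391.4 under sevoflurane and 430.0 in the control. Its levels were 0.12 under sevoflurane and -0.69 in the control, a difference of 0.81. This difference was below 2-fold in all 7 scalings and was -0.29 under scaling to the median of all probes. The gap between the differences of Myc and Mycn was 3.14 log2 units, with a range of 3.00 to 3.14.

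**Figure D2:**
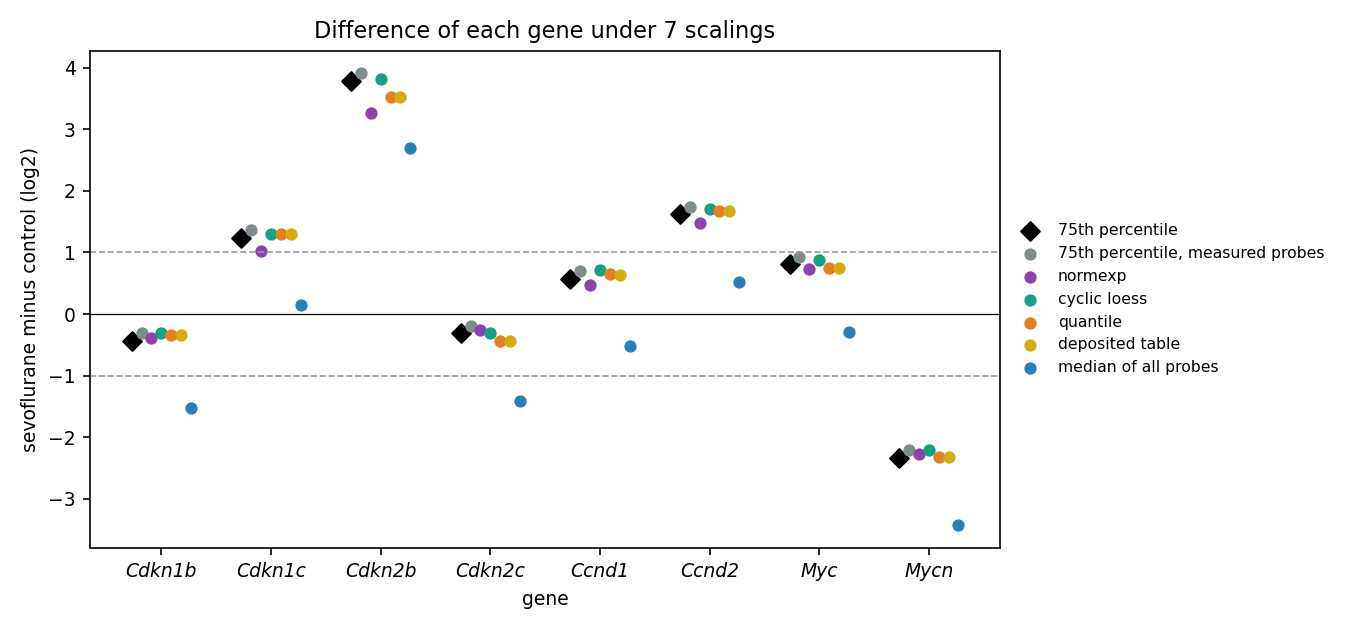
Difference (sevoflurane minus control, log2 units) of each of the 8 genes under 7 scalings, with dashed lines at 2-fold. Cdkn2b stays above and Mycn below these lines in every scaling, and the scaling to the median of all probes sets every gene lower than the other 6 do, with Ccnd1 and Myc below 0 under it alone.

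The difference depended on the level over all genes. Its median was 1.69 in the dimmest of 10 equal groups of genes by mean level and 0.14 in the brightest. All 8 genes fell into groups 5 to 9, where the median lay between -0.14 and -0.01. With the median of its own group subtracted, the difference was 3.82 for Cdkn2b and -2.19 for Mycn. It was 1.76 for Ccnd2, 1.38 for Cdkn1c, 0.85 for Myc and 0.72 for Ccnd1. Without that subtraction, the differences of Ccnd2 and Cdkn1c (1.62 and 1.24) lay above the upper quartile of their group, 0.33, and those of Myc and Ccnd1 (0.81 and 0.57) above the upper quartiles of theirs, 0.59 and 0.42. Cdkn1b and Cdkn2c lay between the quartiles of their groups, at -0.30 and -0.31 after subtraction.

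**Figure D3:**
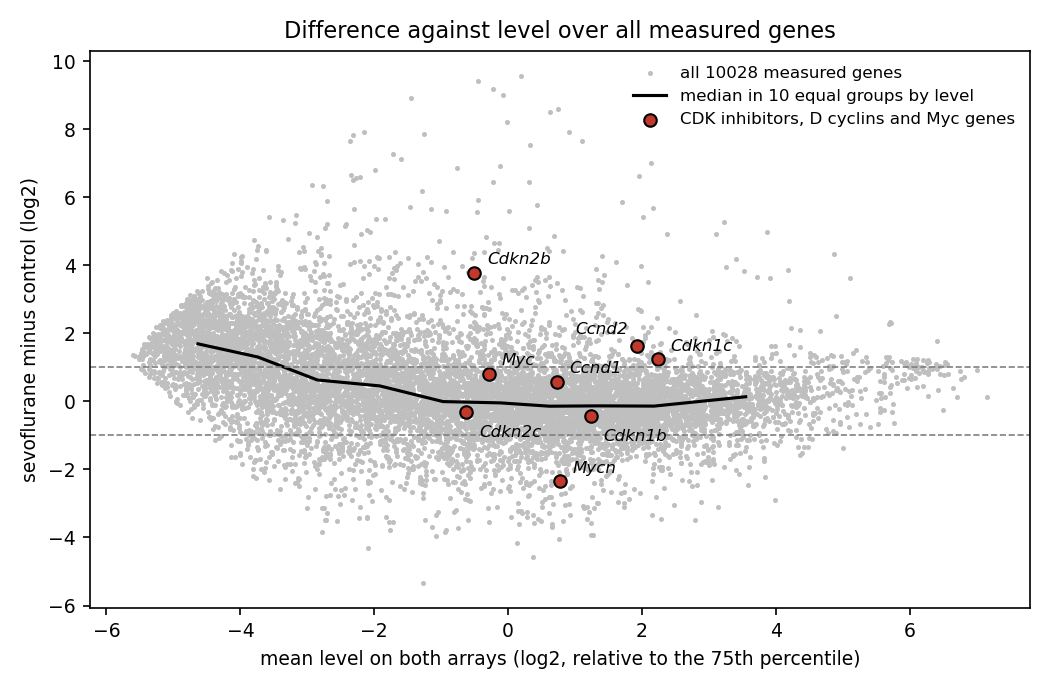
Difference (sevoflurane minus control, log2 units) against the mean level on both arrays for all 10028 measured genes (grey), with the median in 10 equal groups by level (line) and the 8 genes in red. Cdkn2b at 3.79 and Mycn at -2.33 lie far from the line, and Cdkn2c and Cdkn1b close to it.

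Of 12 genes listed as G1/S kinases, E and A cyclins and CDK-activating kinase, 10 were measured, and Cdk6 and Cdk7 were not analysed here. After 75th percentile scaling their median was 0.12, and 0 were past 2-fold in either direction. For this and the later lists, the same rule took 28.2% of all measured genes as higher and 11.2% as lower. Mnat1, a subunit of the CDK-activating kinase, was at 0.63, Cdk2 at 0.56 and the cyclin E genes Ccne2 and Ccne1 at -0.45 and 0.29. Quantile normalization, cyclic loess and the deposited table each placed 2 of the 10 lower by at least 2-fold, among them Ccne2 at -1.29 after cyclic loess, and median scaling placed 4 lower with a list median of -0.98. The signals of Ccne2 were dim, 38.7 under sevoflurane and 101.6 in the control. Cdk4, which encodes a kinase partner of D cyclins, was at 0.13, and it was negative in 4 of 7 scalings, with a lowest value of -0.96.

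Of 13 listed RB and E2F genes, 6 were measured, with a median of 0.19. Beside 28.2% higher and 11.2% lower of all measured genes, 2 of these 6 were higher and 1 lower. Cyclic loess gave 0 higher and 3 lower and moved the median to -0.80. Tfdp2, which encodes a dimer partner of E2F, was at 1.89 (0.76 after cyclic loess). The signals of Tfdp2 were dim, 64.1 under sevoflurane and 33.3 in the control. E2f3 was at 1.11, with signals of only 14.6 under sevoflurane and 13.0 in the control, and was negative after cyclic loess and quantile normalization and in the deposited table. Rbl2, which encodes the retinoblastoma relative p130, was at -1.09, and the E2F partner gene Tfdp1 at -0.59.

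Of 14 genes for partners of MYC in the MAX and MLX network, 8 were measured, with a median of -0.03. Of these 8, 2 were higher and 1 lower, near the shares of all measured genes (28.2% and 11.2%). Mnt, which encodes a MAX partner that opposes MYC, gave signals of 592.5 under sevoflurane and 3757.2 in the control. Its difference of -1.72 lay between -2.81 and -1.60 over the scalings. Mxd1 and Mxd3, which encode other antagonists of MYC, were at 1.32 and 0.93. Mxd1 was at 0.75 in the deposited table and with quantile normalization, 0.92 after cyclic loess and 0.22 after median scaling. Max itself was at 1.09 with dim signals (40.7 under sevoflurane and 37.0 in the control), and it was negative in 4 of 7 scalings. This list of partners held 0 higher genes after quantile normalization, after median scaling and in the deposited table, and 1 after cyclic loess, while median scaling put 4 of the 8 below 2-fold. Of 20 MYC target genes of ribosome synthesis and metabolism, all were measured, with 1 higher, 0 lower and a median of 0.32. The lactate dehydrogenase gene Ldha was at 1.41, the translation initiation factor gene Eif4e at -0.85, the nucleolin gene Ncl at 0.67 and the chaperonin gene Hspd1 at 0.54. Ldha was within 2-fold in the deposited table and with quantile normalization (0.76 in both) and after median scaling (0.32). With median scaling 6 of the 20 target genes were lower and the list median was -0.77.

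The genes for turnover of these proteins by SCF ubiquitin ligases had 10 of 14 measured, with 0 higher, 0 lower and a median of -0.13. Fbxo31 and Ambra1, which direct the breakdown of D cyclins, were at -0.88 and -0.80, and the kinase subunit genes Cks1b and Cks2 at 0.54 and 0.51. Median scaling put 7 of these 10 genes below 2-fold (list median -1.23), and without the filter on dim probes 2 of 12 were higher. Among 22 listed upstream regulators, 15 were measured, with 4 higher, 0 lower and a median of 0.00. The 4 of 15 lies near the 28.2% of all measured genes that were higher, and 11.2% of all were lower. Lef1, the WNT pathway factor known to act on Ccnd1 and Myc, gave 10260.3 under sevoflurane and 652.2 in the control, a difference of 4.92. The FOXO factor genes Foxo3 and Foxo4 were at 2.60 and 1.11 and the zinc finger factor gene Klf6 at 1.40. The signals of Foxo3 (54.3 under sevoflurane and 17.3 in the control) and Klf6 (48.2 and 35.1) were dim. After cyclic loess Foxo3, Foxo4 and Klf6 were at 0.96, 0.96 and 0.13. Cyclic loess put 1 gene of the list above and 2 below 2-fold. Quantile normalization and the deposited table each gave 2 above and 2 below, and median scaling gave 2 above and 10 below with a median of -1.10.

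**Figure D4:**
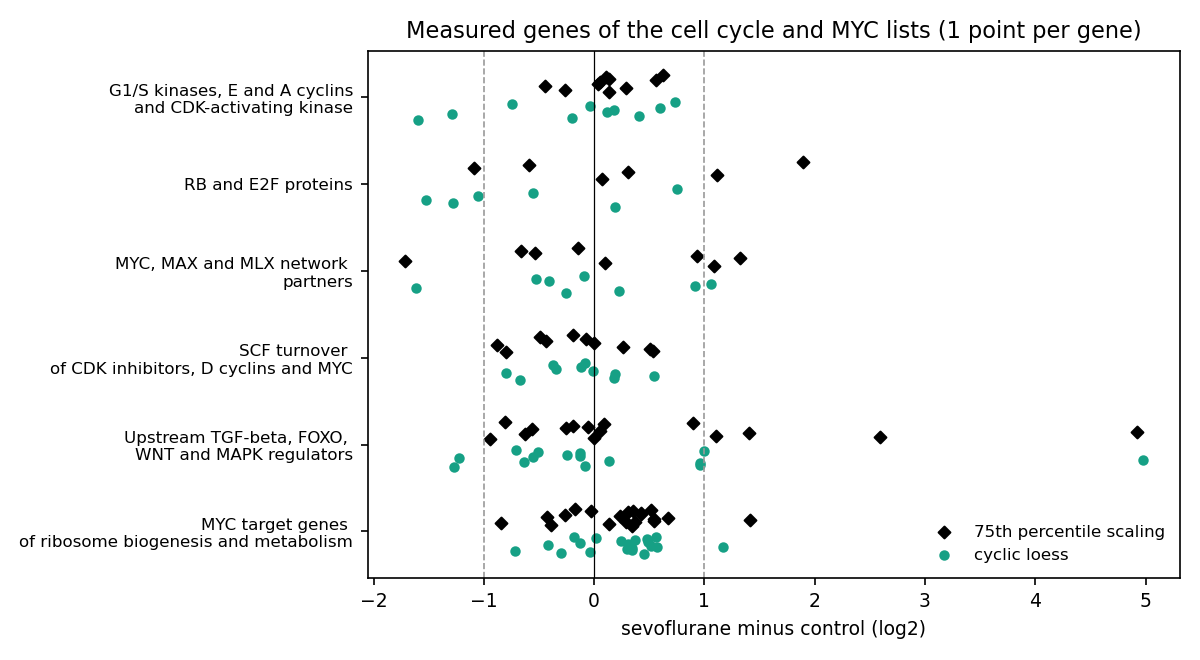
Difference (sevoflurane minus control, log2 units) of every measured gene of 6 lists around the CDK inhibitors, D cyclins and MYC genes, after 75th percentile scaling (diamonds) and after cyclic loess (circles), with dashed lines at 2-fold. The kinase list stays within 2-fold after 75th percentile scaling, and Lef1 stands alone at 4.92.

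Markers of other cell types and of proliferation moved beside these values. By the 2-fold rule 28.2% of all measured genes were higher and 11.2% lower after 75th percentile scaling. All 10 listed neural stem cell markers were measured on both arrays, 2 of them above and 1 below 2-fold. With normexp 2 of these markers were higher and 3 lower, and with median scaling 0 higher and 5 lower. The 7 measured proliferation genes had a median of 0.31, and 2 were higher and 0 lower by that rule. With normexp 0 proliferation genes were higher. Median scaling gave 0 higher and 1 lower proliferation gene, with a median of -0.79. Beside the lower level of Mycn, 4 of 6 measured neuronal genes were lower, with a summed signal of 50.8 times the 75th percentile under sevoflurane and 120 times in the control, and 0 were higher. All 6 were lower after quantile normalization and cyclic loess and in the deposited table, and 3 with the 75th percentile over measured probes. Of 5 measured microglial genes 4 were lower and 0 higher, with summed signals of 2.19 times under sevoflurane and 12.4 times in the control, and Itgam was not well above background on both arrays. Beside the higher Cdkn2b, Cdkn1c and Ccnd2, all 6 erythroid genes were higher, with summed signals of 142 times under sevoflurane and 25.6 times in the control. Of 4 mesenchymal and pericyte genes 3 were higher (25.2 times under sevoflurane and 18.9 times in the control), as were both measured endothelial genes (0.285 times and 0.0459 times), with Pecam1 not well above background on both arrays. Most of the mesenchymal sum came from Col3a1 (8035.2 under sevoflurane and 12392.8 in the control), which at 0.32 was not among the 3 higher genes. Of those, Rgs5 (52.1 under sevoflurane and 9.6 in the control) and Thy1 (39.5 and 12.6) were dim. After cyclic loess 2 of the 4 mesenchymal genes and 1 of the 2 endothelial genes were higher, with Thy1 at 0.58 and Flt1 at 0.31. Both endothelial genes were dim, Flt1 with signals of 28.6 under sevoflurane and 9.0 in the control. Astrocyte genes were dim, with summed signals of 0.406 times under sevoflurane and 0.321 times in the control, and 2 of 4 were higher and 0 lower, but 0 higher and 2 lower after cyclic loess. Of 5 oligodendrocyte lineage genes 1 was higher and 1 lower (4.19 times under sevoflurane and 3.66 times in the control). The part of these cell types in the differences of the CDK inhibitors, D cyclins and MYC genes was not tested. In such bulk samples fewer cells of a type and less RNA per cell cannot be told apart, and scan day cannot be told apart from group, since the arrays were scanned on different days.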

How the data were processed

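Total RNA was labelled with Cy3 by random priming and hybridised to 1-colour arrays, per the labels' protocols. The deposited scanner files give the intensity of each spot, linear, as written by Agilent Feature Extraction (version 11.0.1.1 per the submitters' processing notes), which had corrected it for background but not scaled it between arrays. The deposited value table holds log2 values made in a way the sources used here do not give. Its columns correlated with log2 scanner signals at 0.991 (sevoflurane) and 0.993 (control) and both had a median of 5.61, but its centring is unknown. For the genes of the group its differences lay close to those of quantile normalization (Cdkn2b at 3.53 in both, Mycn at -2.33 and -2.32). The deposited table and quantile normalization are therefore nearly the same setting for these genes. Control spots and spots marked non-uniform or population outliers were left out (521 under sevoflurane and 580 in the control, of 42136 each); 0 spots were saturated. Log2 processed signals were averaged per probe, and each array's 75th percentile over 24629 probes was taken off. A probe was measured when most of its usable spots were well above background on both arrays. The number of arrays limits the precision: a single array per group allows no p-value.

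Accessions without versions were named through the RefSeq table of GRCr8, which gave 13862 genes with a usable probe, and the measured probe of highest mean level stands for its gene. The alternatives used limma 3.58.1 (quantile, cyclic loess, and normexp with offset 50 on median spot and background signals, since the files give no mean signal). The calculations were tested on simulated copies of the control array, set apart by noise, a constant factor and known changes. These copies had no difference that depended on the level, unlike the real arrays, so that case was not tested. All genes of the group are named, and of each list up to 4 measured genes with the largest absolute difference, with Cdk4 added after its value was seen. The genes and lists were chosen with earlier results of these data known.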

Additional observations from a re-analysis of the deposited data

How the results depend on the processing

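The counts of 3 higher and 1 lower of the 8 genes were the same in 8 of 9 alternatives (quantile normalization, cyclic loess, the 75th percentile over measured probes, normexp, the deposited table, flagged spots kept, the mean over probes and no filter on dim probes). The last 3 of these could hardly change the counts. All 8 genes were measured, each probe had 1 spot per array, and only Cdkn1c had more than 1 probe. At 1.5-fold the counts were 4 and 1. Scaling to the median of all probes, dim ones included, gave 1 higher (Cdkn2b) and 3 lower (Mycn, Cdkn1b and Cdkn2c), and a median of -0.40 for the group and -0.83 for all measured genes. The median of the group was 0.81 with the 75th percentile over measured probes. Of 72 recomputed differences of the 8 genes, 46 moved by less than the technical spread of 0.111 log2 units, 26 moved by more and 0 differences of at least 2-fold changed sign. The 46 include every value with flagged spots kept, the mean over probes or no filter on dim probes. Among named list genes past 2-fold after 75th percentile scaling, E2f3 and Max changed sign, both with dim signals. E2f3 went to -1.50 (quantile), -1.28 (cyclic loess) and -1.12 (deposited table). Max went to -0.20 (quantile), -0.25 (cyclic loess), -0.010 (median scaling) and -0.20 (deposited table). Some named list genes within 2-fold also changed sign, bright ones included. Under median scaling Ncl was at -0.43 and Mnat1 at -0.47. The share of higher genes among all that differed by at least 2-fold was 71.5%, but 41.0% (quantile), 44.5% (cyclic loess), 41.5% (deposited table) and 19.4% (median scaling). The cause of these shifts was not tested. No paired analysis was possible because each group has 1 array.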
